A study of Homo sapiens with 6 samples.

Results

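The calnexin cycle and the EDEM mannosidases were represented by 10 of the 37993 gene symbols in a table of RNA-seq counts from 6 cultures of the human kidney-derived line HEK293T, called HEK293 in the protocols, which takes up plasmids easily. The genes were selected by name, with earlier results of these data known. They were the lectin chaperones CALR and CANX, the glycoprotein folding sensors UGGT1 and UGGT2, the glucosidase genes MOGS, GANAB and PRKCSH, and the mannosidase-like genes EDEM1, EDEM2 and EDEM3. In 5 cultures ATF6 was overexpressed, as the allele labelled WT, as M67V (a missense change), as N267star (a premature stop), or as an allele lacking several exons, ex2-3del or ex8-14del. The sixth culture was labelled non-transfected, while an empty vector is what the protocol mentions. The labels name neither the promoter that drove ATF6 nor the time after transfection, and all 6 cultures keep their endogenous ATF6 gene. In the authors' deposited comparison sheets the WT culture carries a number in place of its name, and whether its construct was full length is not stated.

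ATF6 is a transcription factor held in the membrane of the endoplasmic reticulum (ER), and when unfolded proteins accumulate it is cut free and switches on genes of ER protein folding. Most proteins made in the ER receive a glucose-capped N-linked sugar, and the calnexin cycle reads that sugar. Glucosidases I and II trim the glucoses, calnexin and calreticulin hold the glycoprotein while it folds, and UGGT puts a glucose back on a glycoprotein that is still misfolded. EDEM proteins act at the exit towards degradation, where mannose trimming marks a glycoprotein for removal.

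Each group held 1 library, so there is no replicate check and no test between conditions. Levels are given in CPM (counts per 1000000, scaled by TMM factors, which correct for differences in library composition). Intervals are 95% intervals of counting error only: exact Poisson for a level, and exact conditional binomial for a ratio of 2 counts. They describe how far 2 libraries differ, not 2 conditions. The libraries held between 16023952 and 16813355 counts. ATF6 stood at 1148 CPM with WT and 1493 CPM with M67V, 713 CPM with N267star, 1349 CPM with ex2-3del and 2410 CPM with ex8-14del, against 85.1 CPM in non-transfected cells. Counts also depend on transcript length, and the deletion alleles lack several exons, so these levels do not rank the alleles by dose. The BiP gene HSPA5, a classical ATF6 target, stood at 3634 CPM with WT and 3375 CPM with M67V, at 693 CPM with N267star, 599.7 CPM with ex2-3del and 741 CPM with ex8-14del, against 559 CPM in non-transfected cells. All 7 HEK293 markers looked up (VIM, KRT8, KRT18, NEFM, NEFL, LIN28B and PAX2) had at least 1 CPM in every library, and their summed level lay between 919 and 1018 CPM. Of 11 markers of other cell types, between 1 and 3 reached 1 CPM in a library, HBB and DCN had no count in any, and the summed level was between 29.7 and 37.2 CPM, mostly from COL1A1. In bulk RNA the share of cells that took up plasmid and the RNA per cell cannot be told apart.

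Of the 10 genes, CALR, CANX, UGGT1 and EDEM1 were higher in WT and in M67V than in non-transfected cells, by between 1.32-fold and 2.21-fold. They are those with a log2 ratio of at least 0.32, a size added after the values were known. Of all genes tested, 6.63% in WT and 5.35% in M67V met that size in either direction. Smaller differences were present too. Intervals lay above equality for 6 of the 10 genes in WT (14.4% of all genes) and 8 in M67V (10.4%). They lay below it for 1 in WT (15.2%) and 0 in M67V (8.02%). In N267star, ex2-3del and ex8-14del CALR, CANX, UGGT1 and EDEM1 had log2 ratios to non-transfected cells of no more than 0.28. CANX was the highest of them. The glucosidase genes MOGS, GANAB and PRKCSH lay within 0.20 of equality on the log2 scale in every comparison. All 10 genes held over 20 CPM in every library, so none was lost to a filter on low values.

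CALR, which encodes calreticulin, the soluble lectin chaperone of the ER lumen, had the highest ratio of the 10 genes in WT and in M67V. Its level was 2039 CPM with WT and 1934 CPM with M67V, 1016 CPM with N267star, 963 CPM with ex2-3del and 1029 CPM with ex8-14del, against 921 CPM in non-transfected cells. WT and M67V stood far above the other 4 libraries, which lay within a narrow band. The log2 ratio to non-transfected cells was 1.15 (1.12 to 1.18) in WT and 1.07 (1.04 to 1.10) in M67V, which is 2.21-fold and 2.10-fold. It was 0.14 (0.11 to 0.17) in N267star, while ex2-3del had 0.06 (0.03 to 0.10) and ex8-14del had 0.16 (0.13 to 0.19). In the order of levels, ex8-14del and N267star were the only neighbours that did not differ beyond counting error. Among 13188 genes tested in WT, CALR had the 108th highest ratio.

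CANX encodes calnexin, the membrane-bound lectin chaperone. It stood at 1826 CPM with WT and 1772 CPM with M67V, 1456 CPM with N267star, 1332 CPM with ex2-3del and 1348 CPM with ex8-14del, against 1202 CPM in non-transfected cells. All 5 transfected libraries were above the non-transfected one, with WT and M67V highest and N267star between them and the deletion alleles. The log2 ratio was 0.60 (0.58 to 0.63) in WT, 0.56 (0.53 to 0.59) in M67V, and it was 0.28 (0.25 to 0.30) in N267star, while ex2-3del had 0.15 (0.12 to 0.18) and ex8-14del had 0.17 (0.14 to 0.19). The folds of 1.52 in WT and 1.47 in M67V fall on either side of 1.5, and each interval contains that size. With library totals in place of TMM factors the WT log2 ratio was 0.58, just under 1.5-fold. In RefSeq's annotation CANX overlaps CBY3, which reached no more than 1.01 CPM here.

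**Figure D1:**
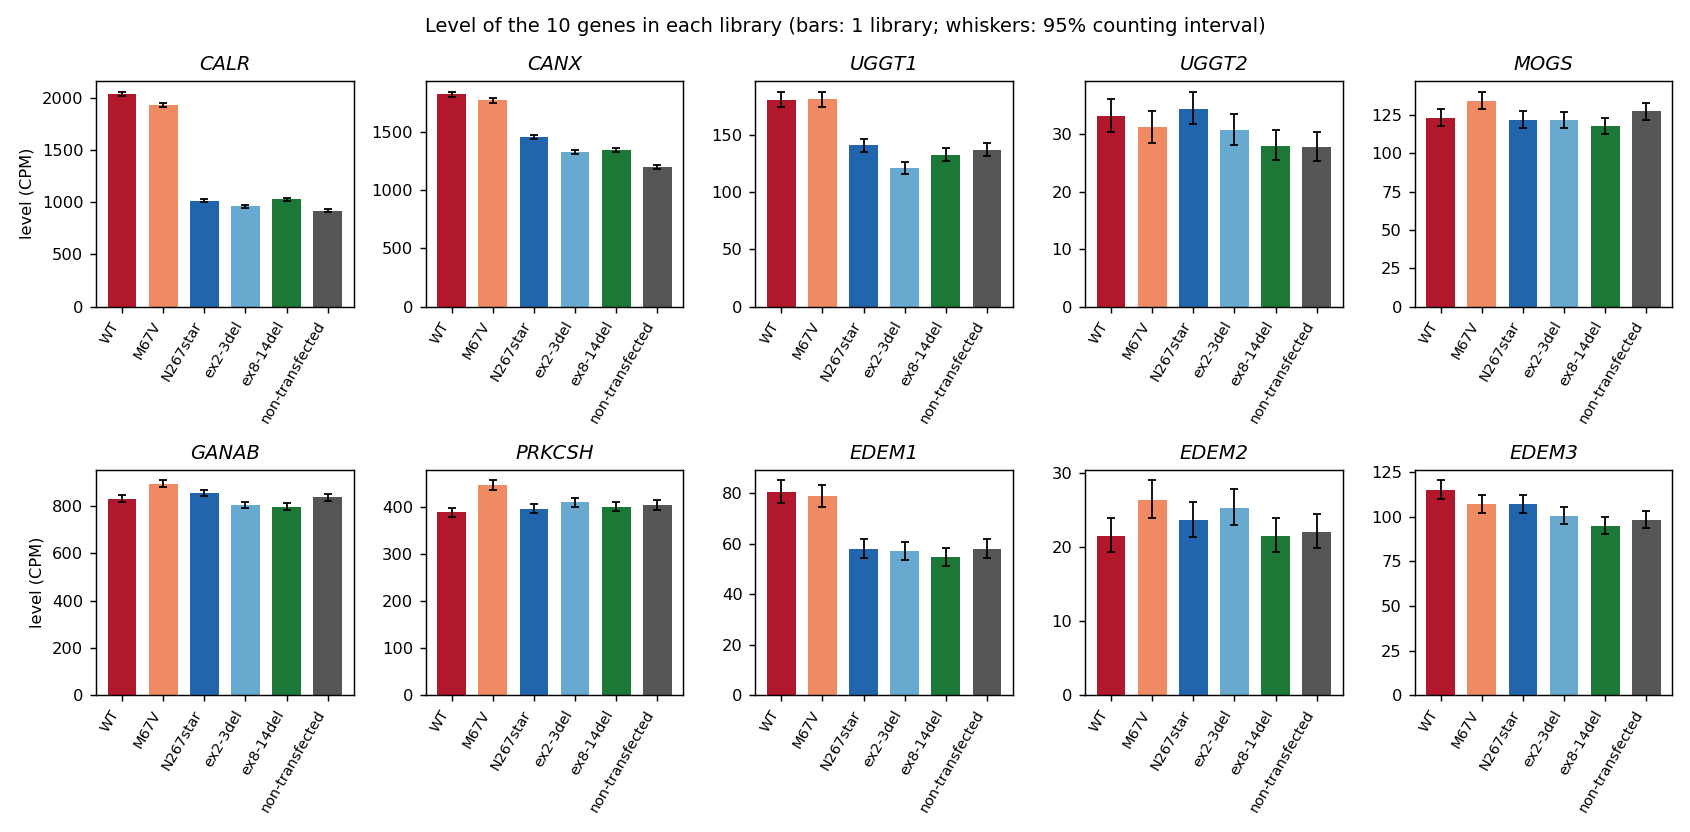
Level in CPM (vertical axes, each from 0) of the 10 genes in the 5 transfected libraries and the non-transfected library; each bar is 1 library and the whiskers are exact 95% Poisson intervals. CALR, CANX, UGGT1 and EDEM1 are highest in WT and M67V, and the 3 glucosidase genes lie at similar heights in all 6 libraries.

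Because both lectins were counted in the same libraries, their ratio is free of library scaling. CALR had 1.12 counts per CANX count in WT (1.10 to 1.13) and 1.09 in M67V (1.07 to 1.11). The ratio was 0.698 in N267star (0.685 to 0.712), while ex2-3del had 0.722 (0.708 to 0.737) and ex8-14del had 0.763 (0.748 to 0.778), against 0.766 in non-transfected cells (0.750 to 0.782). The soluble lectin was thus higher relative to the membrane-bound one in WT and M67V. In N267star and ex2-3del the ratio lay below that of non-transfected cells, and in ex8-14del the interval overlapped it. These are ratios of counts, which also depend on transcript length, so only their differences between libraries are read.

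The promoters of CALR and CANX are shown because both hold a complete ER stress response element (ERSE), the sequence from which ATF6 acts together with the CCAAT-binding factor NF-Y. The element was searched as CCAAT, 9 bases of any kind, and CCACG, on both strands, in RefSeq windows of GRCh38.p14 from 250 bases before to 50 after each annotated start. Windows were at hand for 9 of the 10 genes, not for MOGS. The 250 bases before the start are printed for CALR (chr19:12938359-12938608, plus strand), CANX (chr5:179698679-179698928, plus strand, 1 of 4 annotated starts), EDEM1 (chr3:5187457-5187706, plus strand) and GANAB (chr11:62646614-62646863, minus strand). EDEM1 and GANAB are printed as examples with both half-elements but no complete one. Their log2 ratios to non-transfected cells in WT were 0.47 for EDEM1 and -0.01 for GANAB. Capitals mark CCAAT and CCACG or their reverse complements ATTGG and CGTGG, some of which overlap.
CALR: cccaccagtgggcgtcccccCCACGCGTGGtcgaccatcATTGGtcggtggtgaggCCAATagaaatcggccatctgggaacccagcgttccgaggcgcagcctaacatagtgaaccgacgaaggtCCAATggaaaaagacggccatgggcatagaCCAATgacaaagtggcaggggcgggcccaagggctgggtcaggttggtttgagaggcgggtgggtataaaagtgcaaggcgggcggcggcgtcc
CANX: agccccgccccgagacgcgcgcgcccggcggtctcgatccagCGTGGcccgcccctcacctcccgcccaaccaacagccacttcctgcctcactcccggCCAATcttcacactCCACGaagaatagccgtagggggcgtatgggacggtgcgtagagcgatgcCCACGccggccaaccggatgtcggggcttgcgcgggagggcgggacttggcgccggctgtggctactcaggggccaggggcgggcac
EDEM1: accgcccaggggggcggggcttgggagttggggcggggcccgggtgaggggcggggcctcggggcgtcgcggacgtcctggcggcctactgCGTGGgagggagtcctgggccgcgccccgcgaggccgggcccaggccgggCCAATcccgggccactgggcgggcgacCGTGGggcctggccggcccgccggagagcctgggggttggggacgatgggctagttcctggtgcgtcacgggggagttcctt
GANAB: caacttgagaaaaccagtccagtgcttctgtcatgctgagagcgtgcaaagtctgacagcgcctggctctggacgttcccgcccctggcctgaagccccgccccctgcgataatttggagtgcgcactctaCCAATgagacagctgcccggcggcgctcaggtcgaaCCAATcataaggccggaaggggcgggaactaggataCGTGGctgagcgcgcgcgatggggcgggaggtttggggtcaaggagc

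The complete element began at position -225 in CALR, on the minus strand, and at position -151 in the CANX window shown. It was present in 3 of the 4 CANX windows, which overlap each other and share it. None of the other 7 genes with a window held it, although a CCACG on either strand was found in UGGT2, GANAB, EDEM1 and EDEM3. UGGT1 and EDEM1, which also had log2 ratios of at least 0.32 to non-transfected cells in WT and M67V, are among these 7. The UGGT1 window held neither CCACG nor CCAAT. Of all 35116 promoter windows 0.0769% held the complete element, 38.1% held CCACG and 34.6% held CCAAT. The related ERSE-II (ATTGG, 1 base, CCACG), present in 0.0541% of windows, and TGACGTG, in 1.97%, were found in none of the 9 genes. TGACGTGG, an ATF6 and XBP1 site that contains TGACGTG, was in 0.729% of windows. A match is a description of letters and not evidence of binding, and a missing match speaks only for these windows.

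Of the 25 symbols with a complete element, 17 were tested in WT. Of these, 9 were at least 1.5-fold higher than in non-transfected cells, with CALR, CANX and HSPA5 among them. Of all genes tested, 1.87% were higher by that size. ATF6 is known to act from this element, and HSPA5 is a classical ATF6 target. The count is therefore only a description and was not tested. The median log2 ratio of the 17 was 0.60 in WT and 0.70 in M67V, against 0.14 in N267star, while ex2-3del had 0.09 and ex8-14del had 0.16, and the medians of all genes tested lay between -0.008 and 0.001. In M67V 9 of 17 were higher by that size as well, with CALR among them but not CANX, where 2.07% of all genes were. The number was 0 in N267star (0.418% of all genes) and 0 in ex8-14del (0.669%). In ex2-3del (0.616%) it was 1, FICD, at 4.25 CPM in ex2-3del against 2.75 CPM in non-transfected cells. Low levels also enter the counts of WT and M67V. FICD counted in M67V at 4.54 CPM. LOC105373759 counted in both, at 2.58 CPM in WT and 2.65 CPM in M67V against 1.22 CPM in non-transfected cells.

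UGGT1 encodes the glucosyltransferase that senses incomplete folding. Its level was 181 CPM with WT and 181 CPM with M67V, 141 CPM with N267star, 121 CPM with ex2-3del and 133 CPM with ex8-14del, against 137 CPM in non-transfected cells. The WT and M67V libraries did not differ beyond counting error and were above the rest. The log2 ratio to non-transfected cells was 0.40 (0.32 to 0.48) in WT and 0.40 (0.32 to 0.48) in M67V, or 1.32-fold in each. N267star at 0.04 (-0.04 to 0.13) and ex8-14del at -0.04 (-0.13 to 0.04) did not differ beyond counting error. In ex2-3del UGGT1 was lower than in non-transfected cells, at -0.18 (-0.26 to -0.09), the lowest ratio of any of the 10 genes to that library.

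UGGT2, the second UGGT paralog, was counted in far fewer reads, between 454 and 582 per library. It stood at 33.2 CPM with WT and 31.2 CPM with M67V, 34.4 CPM with N267star, 30.7 CPM with ex2-3del and 28.0 CPM with ex8-14del, against 27.7 CPM in non-transfected cells. No 2 neighbours in this order differed beyond counting error. The ratio to non-transfected cells excluded equality in N267star, at 0.31 (0.13 to 0.49), and in WT, at 0.26 (0.08 to 0.44). UGGT1 had 5.45 counts per UGGT2 count in WT (4.96 to 5.99) and 5.80 in M67V (5.27 to 6.398), against 4.94 in non-transfected cells (4.46 to 5.47). The WT and M67V intervals both overlapped that of non-transfected cells, as did that of ex8-14del, at 4.74 (4.29 to 5.25). The lowest ratios were those of N267star, at 4.09 (3.74 to 4.49), and ex2-3del, at 3.94 (3.58 to 4.34).

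**Figure D2:**
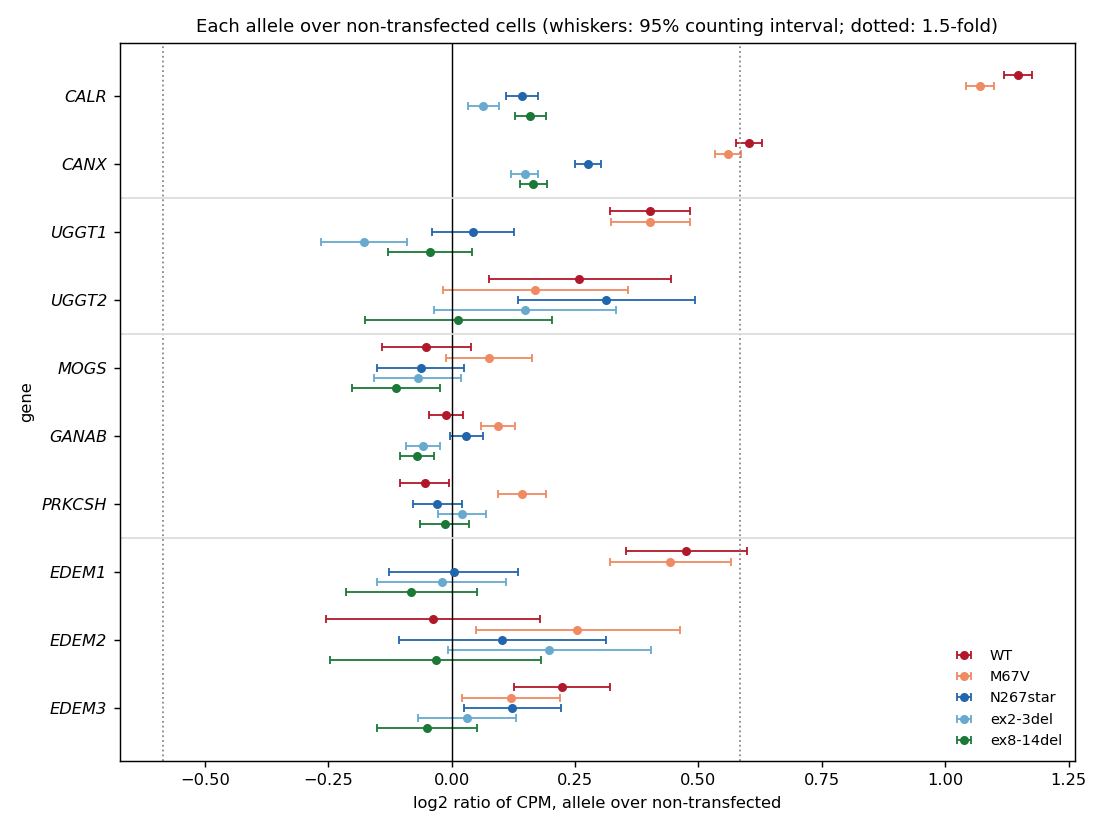
Log2 ratio of CPM of each of the 10 genes in each transfected library over the non-transfected library (horizontal axis), with exact 95% counting intervals as whiskers and 1.5-fold as dotted lines. CALR in WT and M67V and CANX in WT lie beyond the dotted line, and the intervals of UGGT1 and EDEM1 lie to the right of 0 only in WT and M67V.

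The glucosidase genes differed little. MOGS encodes glucosidase I, which removes the outermost glucose. Its level was 123 CPM with WT and 134 CPM with M67V, 122 CPM with N267star, 121 CPM with ex2-3del and 118 CPM with ex8-14del, against 127 CPM in non-transfected cells. No neighbours in that order differed beyond counting error, and the ratio to non-transfected cells excluded equality only in ex8-14del, at -0.11 (-0.20 to -0.02).

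GANAB encodes the catalytic alpha subunit of glucosidase II. It stood at 831 CPM with WT and 894 CPM with M67V, 856 CPM with N267star, 806 CPM with ex2-3del and 798 CPM with ex8-14del, against 838 CPM in non-transfected cells. M67V was highest and the 2 deletion alleles were lowest, with log2 ratios of 0.09 (0.06 to 0.13) in M67V, -0.06 (-0.09 to -0.02) in ex2-3del and -0.07 (-0.11 to -0.04) in ex8-14del. Its partner PRKCSH, the beta subunit that keeps glucosidase II in the ER, stood at 389 CPM with WT and 446 CPM with M67V, 396 CPM with N267star, 411 CPM with ex2-3del and 400.4 CPM with ex8-14del, against 404 CPM in non-transfected cells. PRKCSH was highest in M67V, at 0.14 (0.09 to 0.19), and slightly lower in WT than in non-transfected cells, at -0.05 (-0.11 to -0.005). The other 5 libraries formed a run in which no neighbours in the order differed beyond counting error. PRKCSH overlaps ODAD3, which reached no more than 3.75 CPM. Over all 5 transfected libraries the glucosidase ratios lay between -0.11 and 0.14, while those of the lectins lay between 0.06 and 1.15.

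EDEM1 belongs to the lectin-like mannosidases that route misfolded glycoproteins to degradation. It stood at 80.4 CPM with WT and 78.7 CPM with M67V, 58.03 CPM with N267star, 57.1 CPM with ex2-3del and 54.7 CPM with ex8-14del, against 57.9 CPM in non-transfected cells. WT and M67V formed an upper pair, and the other 4 libraries a lower run in which no neighbours differed. The log2 ratio was 0.47 (0.35 to 0.60) in WT and 0.44 (0.32 to 0.57) in M67V, or 1.39-fold and 1.36-fold. In N267star it was 0.004 (-0.13 to 0.13), in ex2-3del -0.02 (-0.15 to 0.11) and in ex8-14del -0.08 (-0.21 to 0.05).

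EDEM3 stood at 115 CPM with WT and 107 CPM with M67V, 107 CPM with N267star, 100.5 CPM with ex2-3del and 94.95 CPM with ex8-14del, against 98.3 CPM in non-transfected cells. Its ratios were smaller than those of EDEM1 in WT, at 0.22 (0.13 to 0.32), and in M67V, at 0.12 (0.02 to 0.22), and N267star had the same 0.12 (0.03 to 0.22). EDEM2, with only 341 to 428 counts per library, stood at 21.5 CPM with WT and 26.3 CPM with M67V, 23.7 CPM with N267star, 25.3 CPM with ex2-3del and 21.5 CPM with ex8-14del, against 22.04 CPM in non-transfected cells. The EDEM2 ratio excluded equality in M67V, at 0.25 (0.05 to 0.46), but not in WT, at -0.04 (-0.26 to 0.18). RefSeq places a readthrough gene over EDEM2, MMP24-AS1-EDEM2, and how its reads were assigned is not known.

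Within a library, EDEM1 had 0.701 counts per EDEM3 count in WT (0.652 to 0.753) and 0.736 in M67V (0.684 to 0.792). In the other alleles it had 0.542 in N267star (0.501 to 0.586), while ex2-3del had 0.568 (0.524 to 0.615) and ex8-14del had 0.576 (0.530 to 0.625), against 0.588 in non-transfected cells (0.543 to 0.638). The intervals of WT and M67V lie above all of the others. EDEM1 counts per EDEM2 count were 3.75 in WT (3.32 to 4.24), above the 2.63 of non-transfected cells (2.32 to 2.97). In M67V that ratio was 2.99 (2.67 to 3.35), with an interval that overlapped that of non-transfected cells.

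**Figure D3:**
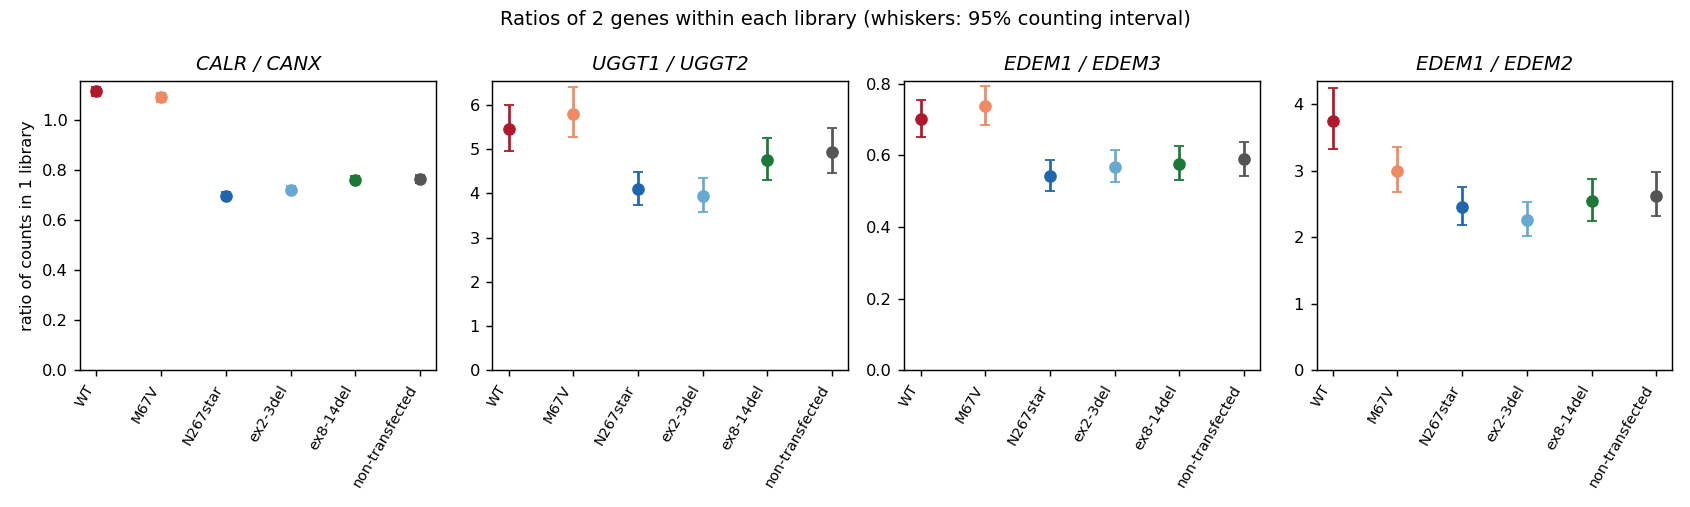
Ratio of the counts of 2 genes within each library (vertical axes, from 0) for CALR to CANX, UGGT1 to UGGT2, EDEM1 to EDEM3 and EDEM1 to EDEM2, with exact 95% counting intervals. CALR to CANX and EDEM1 to EDEM3 are higher in WT and M67V than in the other 4 libraries.

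To set the 10 genes beside the whole table, a gene was counted when its ratio reached 1.5-fold with an interval clear of equality, provided that 1 of the 2 libraries had 1 CPM or more. This is a rule of size and not a test. In WT 2 of the 10 genes met it against non-transfected cells, CALR and CANX, both higher, where 2.71% of 13188 genes tested met it in either direction. In M67V only CALR did, against 2.71% of 13219 genes. The number was 0 of 10 in N267star, where 1.22% of genes met the rule, in ex2-3del, where 1.22% did, and in ex8-14del, where 1.44% did. The median log2 ratio of the 10 genes was 0.24 in WT, 0.21 in M67V, and it was 0.07 in N267star, while ex2-3del had 0.03 and ex8-14del had -0.04, and that of all genes tested lay between -0.008 and 0.001.

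With a smaller size, a log2 ratio of at least 0.32 that was added after the values were known, 4 of 10 genes counted in WT and 4 of 10 in M67V. They were CALR, CANX, UGGT1 and EDEM1 each time, and all were higher. Of all genes tested, 6.63% counted in WT and 5.35% in M67V. The number was 0 of 10 in N267star (3.99% of all genes), in ex2-3del (3.12%) and in ex8-14del (3.86%). All 5 comparisons share the single non-transfected library, so their ratios are not independent of each other. The authors' deposited table was made with DESeq on 1 library per side, so no spread between replicates could be measured. It gave the same 4 genes adjusted p-values between 2.42e-30 (CALR in WT) and 0.0346 (EDEM1 in M67V) in the WT and M67V comparisons. In that table no other of the 10 genes was under 0.05 there, and all 10 adjusted p-values were 1 in each of the other 3 comparisons.

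**Figure D4:**
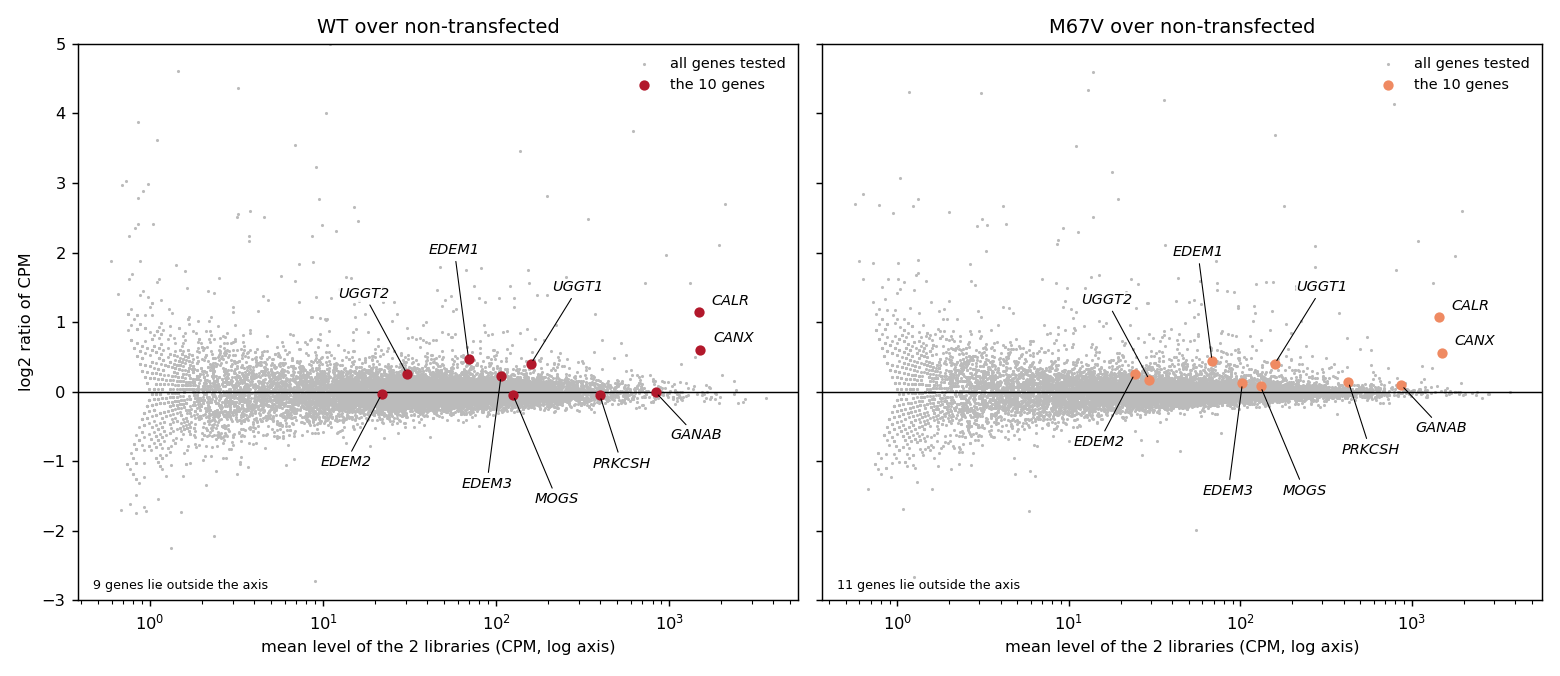
Log2 ratio of CPM over non-transfected cells (vertical axis) against the mean level of the 2 libraries in CPM (horizontal log axis) for WT and M67V; small grey points are all genes with at least 1 CPM in either library and the 10 genes are labelled. CALR and CANX lie above most genes of similar level, and MOGS, GANAB and PRKCSH lie in the middle of the cloud.

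Together the 10 genes took 0.559% of all counts in WT, 0.552% in M67V, with 0.423% in N267star, 0.401% for ex2-3del and 0.403% in ex8-14del, against 0.387% in non-transfected cells. Most of that difference lay in CALR and CANX, whose joint share was 0.383% in WT and 0.365% in M67V, against 0.214% in non-transfected cells. The 3 glucosidase genes held 0.133% in WT and 0.145% in M67V, against 0.138% in non-transfected cells.

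Set against WT, the M67V library differed little in the 10 genes, and 0 of 10 met either size, where 1.13% and 2.93% of 13214 genes did. CALR was slightly lower in M67V, with a log2 ratio of -0.08 (-0.10 to -0.05), and so was CANX, at -0.04 (-0.07 to -0.02). UGGT1 at 0.001 (-0.07 to 0.08) and EDEM1 at -0.03 (-0.15 to 0.08) did not differ beyond counting error. The glucosidase genes were all higher in M67V than in WT, with 0.13 (0.04 to 0.22) for MOGS, 0.11 (0.07 to 0.14) for GANAB and 0.20 (0.15 to 0.25) for PRKCSH. EDEM2 was also higher, at 0.29 (0.08 to 0.50), and EDEM3 lower, at -0.10 (-0.20 to -0.007). These shifts are small, and without replicates their size against the spread between cultures is unknown.

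The other mutants lay below WT in CALR by close to 2-fold. The log2 ratio of CALR was -1.005 (-1.03 to -0.98) in N267star, while ex2-3del had -1.08 (-1.11 to -1.06) and ex8-14del had -0.99 (-1.01 to -0.96). CANX was lower by less, at -0.33 (-0.35 to -0.30) with N267star, -0.45 (-0.48 to -0.43) for ex2-3del and -0.44 (-0.46 to -0.41) with ex8-14del. The lectins were thus below WT in all 3 mutants. UGGT1 stood at -0.36 (-0.44 to -0.28) with N267star, -0.58 (-0.66 to -0.50) for ex2-3del and -0.45 (-0.53 to -0.37) with ex8-14del. EDEM1 stood at -0.47 (-0.59 to -0.35) with N267star, -0.49 (-0.62 to -0.37) for ex2-3del and -0.56 (-0.68 to -0.43) with ex8-14del. With a smaller difference, EDEM3 stood at -0.10 (-0.20 to -0.01) with N267star, -0.19 (-0.29 to -0.10) for ex2-3del and -0.27 (-0.37 to -0.18) with ex8-14del. UGGT2 excluded equality only in ex8-14del, at -0.25 (-0.43 to -0.06).

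CALR was the only 1 of the 10 genes at 1.5-fold in each of these comparisons with WT, where the share of all genes was 2.50% with N267star, 2.48% with ex2-3del and 2.41% with ex8-14del. UGGT1 in ex2-3del, at 0.670 times the WT level, came closest without meeting it. At the smaller size CALR, CANX, UGGT1 and EDEM1 were lower in each mutant, against 5.16% of all genes in either direction for N267star, 5.98% for ex2-3del and 6.22% with ex8-14del. Of the glucosidase genes, PRKCSH was higher than WT in ex2-3del at 0.08 (0.03 to 0.13), and EDEM2 of the mannosidase group was higher there at 0.24 (0.03 to 0.45). GANAB was higher in N267star at 0.04 (0.01 to 0.08) and lower in ex2-3del at -0.05 (-0.08 to -0.01) and in ex8-14del at -0.06 (-0.09 to -0.02). The WT library is shared by these comparisons.

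**Figure D5:**
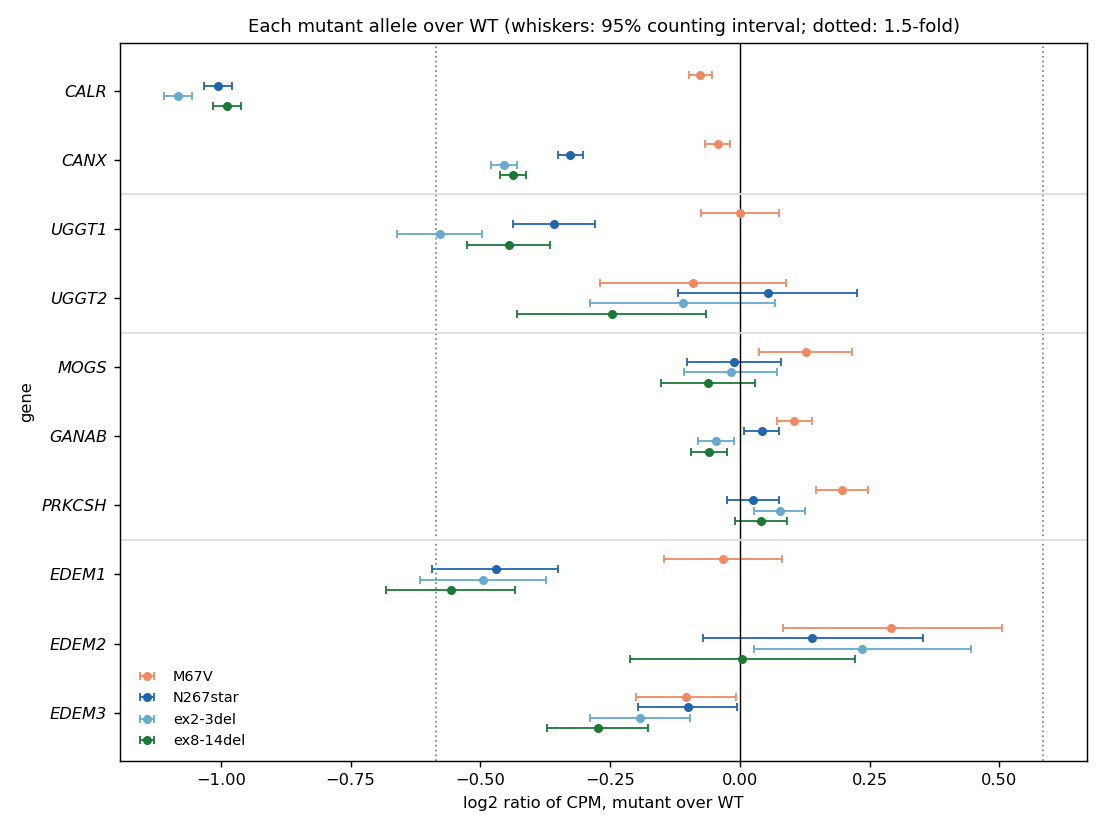
Log2 ratio of CPM of each of the 10 genes in each mutant library over the WT library (horizontal axis), with exact 95% counting intervals as whiskers and 1.5-fold as dotted lines. CALR lies near -1 in N267star, ex2-3del and ex8-14del and near 0 in M67V, and the glucosidase genes lie to the right of 0 in M67V.

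Other genes of glycoprotein handling were taken from 4 lists. Beside their counts against non-transfected cells, 2.71% of all genes tested met the 1.5-fold rule in WT and in M67V. In the other alleles between 1.22% and 1.44% did. The medians of all genes tested lay between -0.008 and 0.001. For a list of 5 genes or fewer, a count of 0 is near those shares. Of 7 partners of the calnexin cycle, 5 were tested in WT. PDIA3, the disulfide isomerase ERp57 that docks on calnexin and calreticulin, was the only 1 at 1.5-fold, with 513 CPM in WT and 525 CPM in M67V, against 308 CPM in non-transfected cells. Its log2 ratio was 0.74 (0.69 to 0.79) in WT, 0.77 (0.72 to 0.82) in M67V, and it was 0.27 (0.21 to 0.32) in N267star, while ex2-3del had 0.11 (0.05 to 0.16) and ex8-14del had 0.08 (0.02 to 0.14), and it overlaps ELL3, at up to 8.25 CPM. CLGN, the testis homolog of calnexin, was highest in N267star, at 0.44 (0.27 to 0.62), and stood at 0.15 (-0.03 to 0.33) in WT. CALR3 had under 1 CPM in every library, and SELENOF, whose older name SEP15 reads as a date, was not analysed here. The list median was 0.34 in WT and 0.39 in M67V, against 0.15 in N267star, while ex2-3del had 0.11 and ex8-14del had 0.07.

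Of 10 genes of glycoprotein degradation all were tested in WT and 9 in each other comparison with non-transfected cells. SEL1L, the adaptor of the HRD1 ligase, was at 1.5-fold in WT, at 1.74 (1.65 to 1.84). In M67V SEL1L stood at 1.58 (1.48 to 1.68) and OS9, a lectin that reads EDEM-trimmed glycans, at 0.65 (0.59 to 0.72), against 0.50 (0.43 to 0.57) for OS9 in WT. No gene of this list met the rule in N267star, ex2-3del or ex8-14del. The list median was 0.27 in WT and 0.43 in M67V, and between 0.07 and 0.10 in the other 3 alleles. Against WT, SEL1L was lower in N267star at -1.61, in ex2-3del at -1.62 and in ex8-14del at -1.60, and PDIA3 was lower by 1.5-fold or more in ex2-3del at -0.63 and in ex8-14del at -0.66. SEL1L thus had a higher ratio to non-transfected cells than any of the 10 calnexin cycle and EDEM genes in WT and in M67V.

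Of 5 other alpha-mannosidases of the ER and Golgi, 0 met the rule against non-transfected cells. MAN1A2, a Golgi mannosidase, came closest, at 0.57 (0.47 to 0.67) in WT and 0.49 (0.38 to 0.59) in M67V, and in ex8-14del it was lower than WT, at -0.59 (-0.69 to -0.49). MAN1A1 followed, at 0.23 (0.12 to 0.34) in WT and 0.20 (0.09 to 0.31) in M67V. The list median was 0.14 in WT and 0.20 in M67V. Of 5 cargo lectins and partners 4 were tested and 0 met the rule, with a median of 0.13 in WT and 0.14 in M67V. MCFD2, the partner of the cargo receptor LMAN1, was highest of these, at 0.46 (0.38 to 0.53) in WT and 0.47 (0.39 to 0.55) in M67V, and LMAN1 itself stood at 0.26 (0.19 to 0.33) in WT. In M67V the cargo receptor LMAN2 was next, at 0.15 (0.08 to 0.21).

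Profiles over the 6 libraries were compared by the root-mean-square distance between log2 levels, each centred on the gene's mean, among 11412 other genes that reached 5 CPM somewhere. The nearest to CALR were MIS12 at 0.049, PCDHGC3 at 0.066 and UBE2C at 0.072. The levels of MIS12 were 178 CPM with WT and 167 CPM with M67V, 81.9 CPM with N267star, 79.9 CPM with ex2-3del and 91.4 CPM with ex8-14del, against 76.2 CPM in non-transfected cells. MIS12 overlaps the expressed gene DERL2, and PCDHGC3 overlaps other genes of its protocadherin cluster, so both counts are uncertain. Near to CANX were HSD17B7 at 0.027 and TMED7 at 0.048, and TMED7 overlaps the readthrough gene TMED7-TICAM2. HSD17B7 stood at only 11.2 to 17.3 CPM and PCDHGC3 at 6.78 to 15.1 CPM. The distance takes no account of counting error, so the order of the nearest genes is uncertain. It rests on 6 libraries that share 1 scaling.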

How the data were processed

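The authors made and deposited expected counts per gene symbol, which need not be whole, for 6 libraries of total RNA, with 1 library per group as the genotype label gives it. The submitters' processing notes name GRCh37.p13 and DESeq, and for aligner, counter and strand setting the entry is: not given in the sources used here. A placeholder of 0.028 stood for 0 and was set to 0, counts were rounded, 28 rows whose names had become dates were left out (0.215% to 0.231% of counts), and rows sharing a symbol were summed. A second count table (6 columns) was not used, since a column name there matches no label.

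TMM factors (edgeR 4.0.16, R 4.3.3) lay between 0.985 and 1.01. Log2 ratios used a prior count of 2. Ratio intervals are exact conditional binomial (Clopper-Pearson) and cover counting error only, since each group holds 1 library. PCR reads are not independent molecules, so the intervals may be too narrow even for that error. A count of 0 allows up to 3 counts, or 0.177 to 0.189 CPM. The adjusted p-values quoted are the authors' own. RefSeq (GRCh38.p14) supplied promoters and overlaps only, as the counts rest on another build. The genes and lists were chosen with earlier results of these data known. The rule for named genes took all 10 genes, the list members at 1.5-fold or else the 2 with the largest ratios (given here for WT and M67V against non-transfected cells), HSPA5, and 3 nearest profiles, 1 of which is not reported here; a few further genes (CLGN, FICD, OS9 in WT) were named after their values were seen. The steps were tested on simulated data drawn with counting error only, which cannot speak for the spread between cultures. Python 3.11.15 was used with scipy 1.17.1, numpy 2.4.6, matplotlib 3.10.9 and pandas 2.3.3.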

Additional observations from a re-analysis of the deposited data

How the results depend on the processing

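No paired analysis was possible because each group holds 1 library. Of 360 ratios of the 10 genes under other settings, 356 stayed within their counting interval, 0 of those that excluded equality changed sign, the other 4 were CALR and CANX under library totals, and the largest shift was 0.033 on the log2 scale; the settings were DESeq2 1.42.0 size factors, library totals, a prior count of 0.5 and unrounded counts. No filter or one at 5 CPM cannot change a ratio or a count of these genes, which all exceed it, and so tests nothing here. Of the 10 genes in WT against non-transfected cells, 1 met the 1.5-fold rule with library totals, where CANX stood at 0.58, and 1 met a 2-fold rule. At 2-fold 0 of 10 counted in ex8-14del against WT, where CALR was 0.504 times the WT level. The share of all genes was not computed at 2-fold or with library totals, so those counts have no background beside them. At a log2 ratio of 0.32, added after the data were seen, 4 counted in WT (6.63% of all genes) and 4 in M67V (5.35%) against non-transfected cells. Against WT, 4 counted in each of N267star (5.16%), ex2-3del (5.98%) and ex8-14del (6.22%). Depth limits EDEM2 and UGGT2 most, with 341 to 582 counts per library.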
